A study of Mus musculus with 47 samples.

Results

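The genes described here store, release, import and recycle iron and heme in macrophages, and they are the 8 mouse genes Fth1, Ftl1, Slc40a1, Hmox1, Tfrc, Ncoa4, Cp and Blvrb. They were chosen by gene symbol, and all 8 were found among the 51912 genes of each bone marrow-derived macrophage (BMDM) table and in each of the tables from Raw264.7 cells, a mouse macrophage cell line. The series asked how ZMYND8, a chromatin reader protein, acts with the NF-κB subunit p65 during macrophage polarization, and 12 of its 47 samples were RNA-seq libraries. BMDMs came from C57BL/6 WT mice, which carried the floxed Zmynd8 allele (Zmynd8 fl/fl) without Cre, or from Zmynd8 cKO mice with the same floxed allele, in which Cre is expressed from the Lyz2 locus of myeloid cells. They were grown in 20 ng/ml M-CSF and were then non-treated (NT), or received 100 ng/ml LPS or 20 ng/ml IL-4 for 6 h, which gave the 6 groups WT NT, WT LPS, WT IL-4, cKO NT, cKO LPS and cKO IL-4. The 6 Raw264.7 groups were Zmynd8 KO cells, made with a lentiviral guide, the same cells with WT Zmynd8 or the D/E-A mutant put back (WT Zmynd8 and D/E-A), p65 KO cells, and those with WT p65 or the acetylation site mutant K122R put back. The p65 lines received LPS, and so did the WT Zmynd8 and D/E-A lines according to the text of the study, while no treatment is given for Zmynd8 KO. How many clones a Raw264.7 line holds is not given in the sources used here.

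Iron enters a macrophage bound to transferrin through the transferrin receptor (Tfrc) or as heme, which heme oxygenase 1 (Hmox1) opens to biliverdin, carbon monoxide and iron, and biliverdin reductase B (Blvrb) reduces biliverdin and flavins. Iron that is not used is stored in a shell built from the ferritin heavy chain (Fth1), which oxidizes iron, and the light chain (Ftl1), and NCOA4 carries ferritin to lysosomes when iron is needed. Ferroportin (Slc40a1) exports iron, and ceruloplasmin (Cp), a copper enzyme, oxidizes exported iron so that transferrin can bind it. When iron is scarce, iron regulatory proteins bind a stem-loop called the iron-responsive element, which blocks translation when it lies before the coding sequence and protects the mRNA from decay when it lies after it.

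The letters of this element occur in 4 of the 8 genes, and they are shown because the storage, export and uptake genes carry them on different sides of the coding sequence. The search took the motif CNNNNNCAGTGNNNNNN on the transcribed strand, with the 5 bases on each side of the loop able to pair (G with T allowed). In the GENCODE annotation of GRCm38 (mm10), 31 of 20580 genes (0.151%) had a match in a 5′ UTR and 129 of 20962 genes (0.615%) in a 3′ UTR. Fth1, Ftl1 and Slc40a1 each had 1 match in the 5′ UTR, and Tfrc had 4 in the 3′ UTR. The other 4 genes had no match, which says only that these letters with bases able to pair are not in their annotated UTRs. Each element is printed 5′ to 3′ over 27 bases, with the fixed part of the loop in capitals.
Fth1 5′ UTR, chr19:9982733-9982759, plus strand: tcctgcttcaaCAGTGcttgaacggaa
Ftl1 5′ UTR, chr7:45459780-45459806, minus strand: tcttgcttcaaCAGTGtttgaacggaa
Slc40a1 5′ UTR, chr1:45925466-45925492, minus strand: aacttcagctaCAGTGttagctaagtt
Tfrc 3′ UTR, chr16:32631220-32631246, plus strand: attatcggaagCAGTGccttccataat
Tfrc 3′ UTR, chr16:32631599-32631625, plus strand: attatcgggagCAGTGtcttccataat
Tfrc 3′ UTR, chr16:32631664-32631690, plus strand: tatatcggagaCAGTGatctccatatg
Tfrc 3′ UTR, chr16:32631711-32631737, plus strand: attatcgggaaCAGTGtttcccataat
The elements of the 2 ferritin genes were the same at 25 of 27 bases, and the Slc40a1 element matched the Fth1 element at 13 bases. The 4 Tfrc elements matched the Fth1 element at 9 to 11 bases. All these counts include the letters fixed by the motif, the first C and the 5 loop letters, which match by construction.

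A promoter window of 300 bases was listed in RefSeq (GRCm38.p6) for 6 of the 8 genes, and Slc40a1 and Hmox1 had no entry. The motif TGANNNNGC, the core letters of the antioxidant response element, was searched on both strands and was found for Ncoa4 and Blvrb. It was also found for 45.0% of all genes with a window. The NF-kB motif, also searched on both strands, was found for Ftl1 and Ncoa4 and for 9.55% of all genes with a window.

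Each group had 1 library, and in BMDMs 3 biological replicates had been mixed into it, so a difference between 2 libraries has no replicate check. In BMDMs the 2 genotypes and 3 treatments also allow a fit of genotype plus treatment over the 6 libraries, whose tests are given after the values of single libraries. The libraries held 22597408 to 28386612 counts in BMDMs and 15127110 to 21042628 reads in Raw264.7 cells. Levels are given as CPM, the counts scaled to a library total of 1e6, fold changes are on the log2(CPM + 1) scale, and a gene was called when it was past 1.2-fold (0.263 on the log2 scale) in either direction. Ranges in brackets after a log2 value are 95% Clopper-Pearson limits of the log2 ratio of the reads, without the added 1, and cover counting error only. All 8 genes passed the filter on low values in every comparison, a mean of 10 counts in BMDMs or a mean value of 1 in Raw264.7 cells. Zmynd8 itself was at 87.1 CPM in WT NT, 79.0 in WT LPS and 128 in WT IL-4, and at 81.5, 86.8 and 151 CPM in the cKO libraries of the same order. A count of the whole gene cannot show whether the floxed exons are missing, so the cKO libraries are named by their labels. Lyz2, the locus that carries Cre in cKO, was at 7202 CPM in cKO NT against 10950.5 in WT NT. It was at 2892 in cKO LPS against 6902 in WT LPS, and at 5245 in cKO IL-4 against 8941 in WT IL-4. Macrophage markers were present in every BMDM library (8 of 8 over 3 counts, 6934 to 10318 summed CPM), and the 10 erythroid markers summed to between 0.282 and 1.49 CPM. Neutrophil markers summed to 2.88 to 557 CPM and were highest after IL-4. Fewer cells of a type and less RNA per cell cannot be told apart in such libraries.

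In non-treated WT BMDMs the 2 ferritin chains were far above the other genes. Per length, in the TPM deposited by the authors, Fth1 was at 37873 and Ftl1 at 35098 TPM. Hmox1 followed at 648 TPM, Blvrb at 327, Ncoa4 at 137, Tfrc at 78.1, Slc40a1 at 51.6 and Cp at 1.73 TPM. Fth1 and Ftl1 together made up 3.39% of all counts and 7.30% of all TPM in that library, and 1.97% to 4.90% of all counts over the 6 BMDM libraries.

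**Figure D1:**
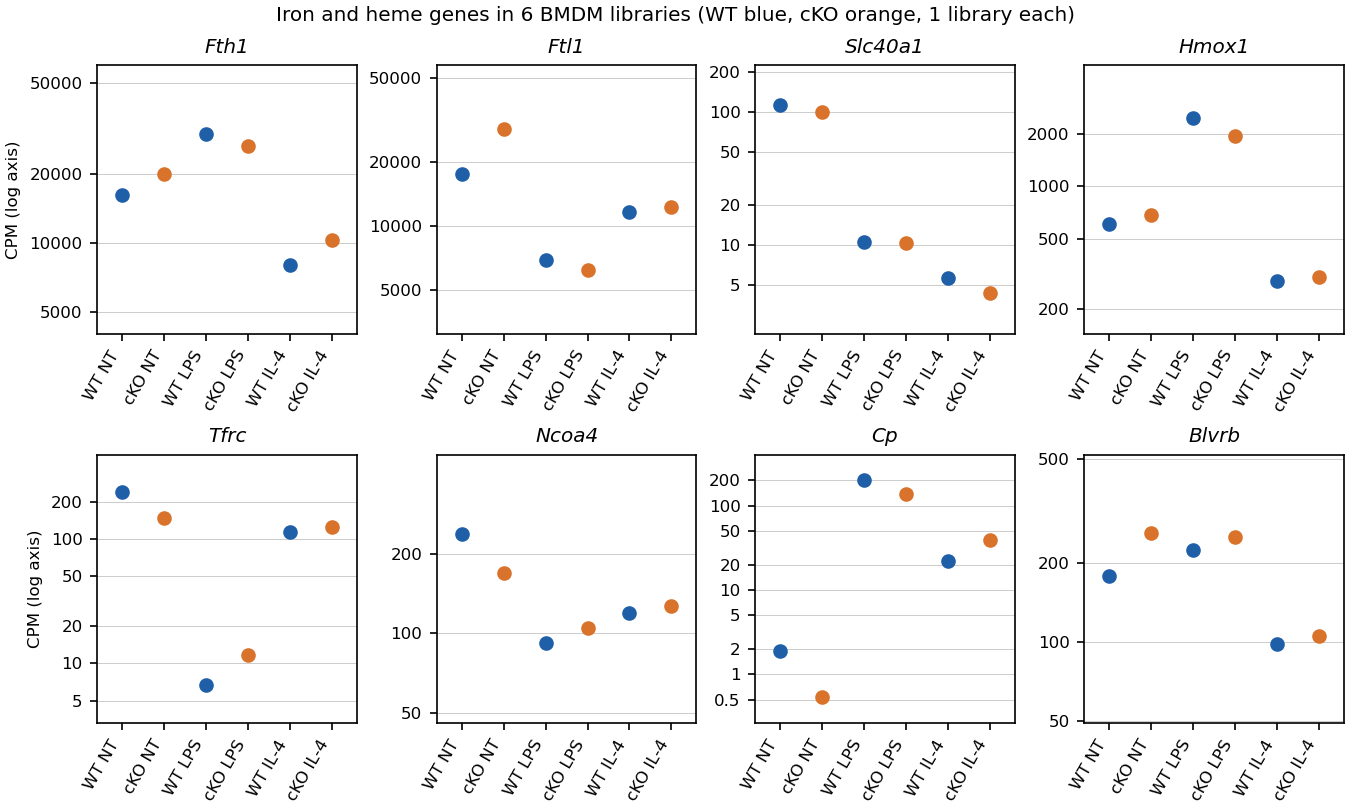
Level of each gene in the 6 BMDM libraries, in CPM on a log axis whose range differs between panels, with WT in blue, cKO in orange and 1 library per point. The points span 4.29 to 111 CPM for Slc40a1, 6.63 to 240 for Tfrc and 0.531 to 202 for Cp, and less for Ncoa4 and Blvrb.

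The first question was how LPS, which drives classical polarization, and IL-4, which drives alternative polarization, moved these genes against NT in each genotype. After LPS, ceruloplasmin, heme oxygenase 1 and the ferritin heavy chain were higher, and the transferrin receptor, ferroportin and the ferritin light chain were lower, in both genotypes. After IL-4, ceruloplasmin alone among the 8 was past 1.2-fold higher, and ferroportin was lower by over 4 log2 units in both genotypes. In WT, LPS gave 4 genes higher and 4 lower, beside 21.7% of the 12813 tested genes higher and 63% lower. In cKO, 3 were higher and 4 lower, beside 25.0% and 60.5% of 12666. IL-4 gave 1 gene higher and 7 lower in WT, beside 41.3% higher and 23.1% lower of 13090. In cKO it gave 1 higher and 6 lower, beside 44.7% and 26.2% of 12966. The 2 treatments share the NT library of each genotype. The titles of the IL-4 libraries carry sample numbers apart from those of the NT and LPS libraries, so a difference in preparation and the treatment cannot be told apart.

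The scale of all genes moved in these comparisons. The median log2 fold change of all tested genes was -0.58 in WT and -0.55 in cKO after LPS, and 0.15 and 0.17 after IL-4. Scaling with TMM, edgeR's trimmed mean of M-values, brought them to -0.10, -0.08, -0.01 and -0.03. With TMM the shares of all genes were 35.3% higher and 43.2% lower after LPS in WT, 37.9% and 43.2% in cKO, 31.0% and 31.7% after IL-4 in WT, and 34.9% and 36.6% in cKO. On the deposited TPM, IL-4 in cKO gave 55.2% higher and 16.9% lower. On TPM the median was -0.27 after LPS and 0.34 after IL-4 in cKO. Values relative to the median of all genes, or on another scale, are given where they change a call. TPM values of single genes are not centred on their median.

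**Figure D2:**
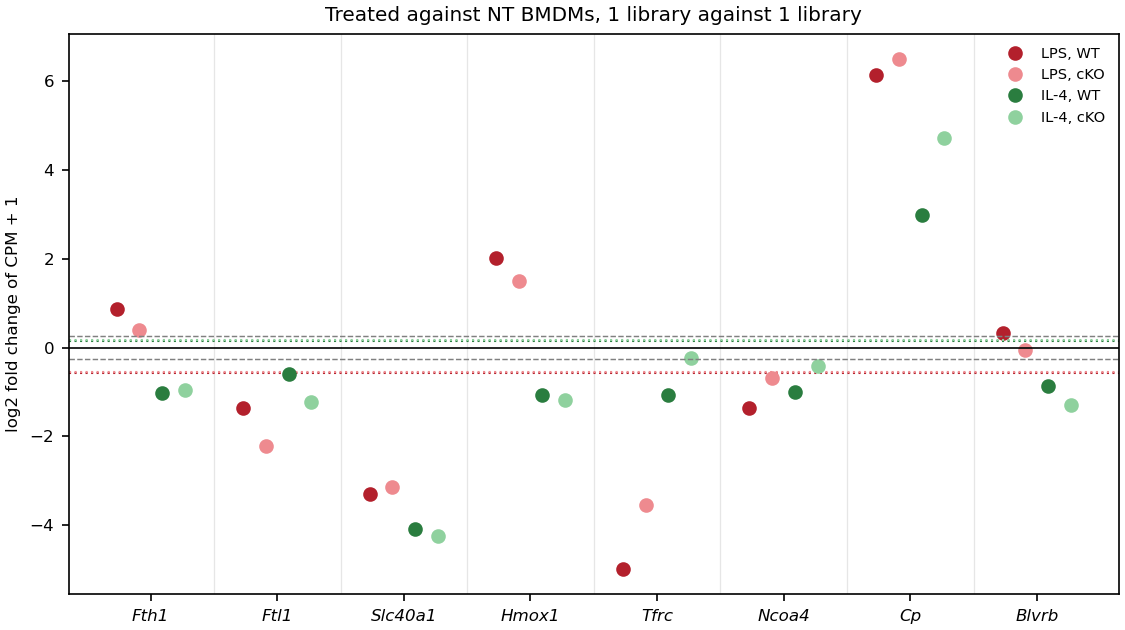
Log2 fold change of CPM + 1 for each gene, treated against NT, with LPS in red and IL-4 in green and the cKO comparison in the lighter shade, 1 library against 1 library. Dashed grey lines mark 1.2-fold and dotted lines the median of all tested genes in each comparison, and Cp lies at 2.99 or above in all 4 while Slc40a1 lies at -3.15 or below in all 4.

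Among the storage genes, the 2 ferritin chains parted after LPS. Fth1 was at 16278 CPM in WT NT, 20137 in cKO NT, 29905 in WT LPS, 26443 in cKO LPS, 8067 in WT IL-4 and 10317 in cKO IL-4. Its order from the top was WT LPS, cKO LPS, cKO NT, WT NT, cKO IL-4 and WT IL-4, and only the 2 LPS libraries were neighbours within 1.2-fold. Against NT, Fth1 was higher after LPS by 0.88 (0.87 to 0.88) in WT and by 0.39 (0.39 to 0.40) in cKO, and lower after IL-4, at -1.01 (-1.02 to -1.01) and -0.96 (-0.97 to -0.96).

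Ftl1, the light chain, was at 17659 CPM in WT NT and 28815 in cKO NT, at 6886 and 6202 after LPS, and at 11670 and 12269 after IL-4. It was highest without treatment and lowest after LPS in both genotypes, and the genotypes were within 1.2-fold of each other in the treated cells. Against NT it was at -1.36 (-1.37 to -1.35) after LPS in WT and -2.22 (-2.22 to -2.21) in cKO, which is -0.78 and -1.67 relative to the median of all genes. After IL-4 it was at -0.60 (-0.60 to -0.59) and -1.23 (-1.24 to -1.23). Reads of Ftl1 may be shared with its copies Ftl1-ps1 and Ftl2-ps, which held at most 0.153% of the Ftl1 counts each in BMDMs, so the split between them is uncertain.

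The ratio of the chains followed from this. Fth1 TPM over Ftl1 TPM was 1.08 in WT NT and 0.818 in cKO NT. With LPS it was 5.08 in WT and 4.99 in cKO, and with IL-4 0.810 and 0.984. The ratio was at most 1.08 in the 4 libraries without LPS and at least 4.99 in both LPS libraries. Together the 2 chains took 7.30% of all TPM in WT NT and 8.68% in cKO NT. The LPS libraries held 7.90% in WT and 7.43% in cKO, and the IL-4 libraries held 4.28% and 4.84%. After LPS the sum on TPM lay between those of the 2 NT libraries. As a share of counts it was 3.39% in WT NT and 4.90% in cKO NT against 3.68% and 3.26% after LPS, so the cKO LPS library was then below both. The ratio after LPS lay far above both NT libraries. On counts this holds by construction, since within a library the 2 scales differ only by a factor for gene length.

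**Figure D3:**
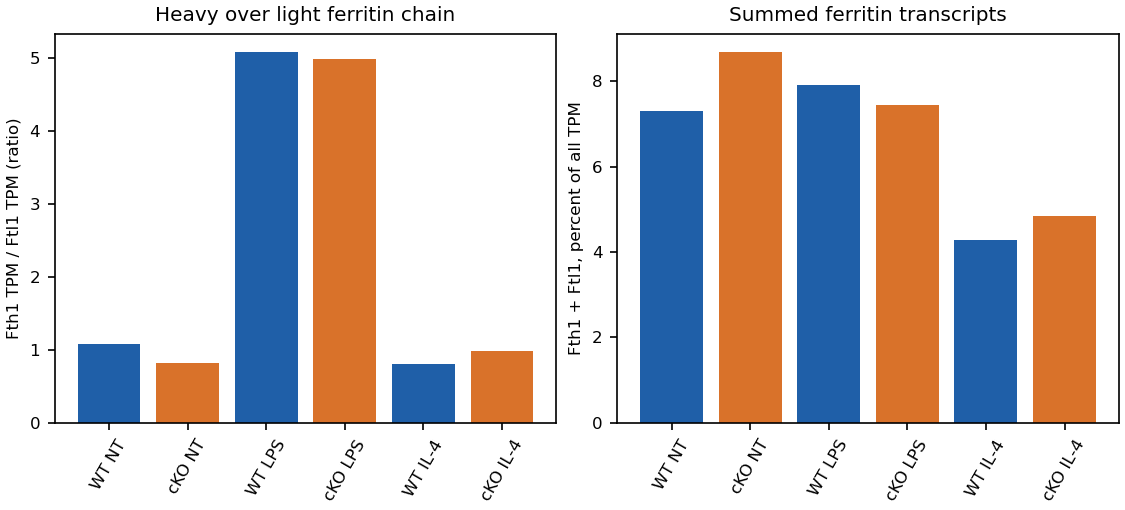
Left, Fth1 TPM over Ftl1 TPM in each BMDM library, and right, the summed TPM of both genes as a percent of all TPM, with WT in blue, cKO in orange and 1 library per bar. The ratio is 5.08 and 4.99 in the LPS libraries and at most 1.08 in the others, and the sum is lowest after IL-4, at 4.28% and 4.84%.

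NCOA4, the ferritin carrier, was highest in WT NT. Ncoa4 was at 238 CPM in WT NT, 169 in cKO NT, 91.7 in WT LPS, 105 in cKO LPS, 119 in WT IL-4 and 127 in cKO IL-4. Each of the 4 treated libraries was within 1.2-fold of the next, and both NT libraries were above them. Its values against NT were -1.36 after LPS and -0.99 after IL-4 in WT, and -0.68 and -0.41 in cKO. The cKO value after LPS was -0.13 relative to the median of all genes, was -0.13 with TMM, -0.11 with the median ratio and -0.14 on TPM, and so was not past 1.2-fold on those scales. On TPM the cKO value after IL-4 was -0.14 as well. The TPM median of all genes was 0.34 there, and Ncoa4 lay past 1.2-fold below that median.

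Ferroportin, the exporter, was lower in all 4 treated libraries than in both NT libraries. Slc40a1 was at 111 CPM (2922 counts) in WT NT, 99.3 (2244) in cKO NT, 10.5 (262) in WT LPS, 10.3 (241) in cKO LPS, 5.64 (160) in WT IL-4 and 4.29 (112) in cKO IL-4. The NT libraries lay within 1.2-fold of each other, as did the LPS libraries, and the IL-4 libraries were lowest. After LPS its value was -3.29 (-3.59 to -3.22) in WT and -3.15 (-3.47 to -3.08) in cKO. After IL-4 it was -4.08 (-4.54 to -4.08) in WT and -4.25 (-4.82 to -4.26) in cKO. Among all tested genes this was the rank 11 lowest of 13090 in WT and the rank 4 lowest of 12966 in cKO.

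Ceruloplasmin had the largest range of the 8 genes over the BMDM libraries, 380-fold from the lowest to the highest. Cp was at 1.87 CPM (49 counts) in WT NT, 0.531 (12) in cKO NT, 202 (5028) in WT LPS, 138 (3222) in cKO LPS, 21.8 (620) in WT IL-4 and 39.3 (1027) in cKO IL-4. Each neighbour in the order WT LPS, cKO LPS, cKO IL-4, WT IL-4, WT NT and cKO NT was past 1.2-fold from the next. After LPS the log2 value was 6.14 in WT and 6.50 in cKO, with ranks 28 of 12813 and 41 of 12666 among the highest. After IL-4 it was 2.99 and 4.72. Because NT counts were low, the added 1 lowers these values: the plain ratio of CPM was 108 (81.6 to 146) after LPS in WT and 259 (148 to 502) in cKO, and 11.7 (8.73 to 16.0) and 74.0 (42.2 to 144) after IL-4.

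The transferrin receptor was lowest after LPS. Tfrc was at 240 CPM (6288 counts) in WT NT, 147 (3319) in cKO NT, 6.63 (165) in WT LPS, 11.6 (271) in cKO LPS, 114 (3245) in WT IL-4 and 125 (3254) in cKO IL-4. The LPS libraries lay far below the other 4, and in the order cKO NT, cKO IL-4 and WT IL-4 each was within 1.2-fold of the next. After LPS the value was -4.98 (-5.41 to -4.96) in WT, rank 2 among the lowest of 12813 genes, and -3.56 (-3.85 to -3.49) in cKO, rank 85 of 12666. After IL-4 it was -1.06 (-1.13 to -1.01) in WT and -0.24 (-0.31 to -0.17) in cKO, and the last was -0.41 relative to the median of all genes and -0.46 with TMM, past 1.2-fold.

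Of the heme genes, Hmox1 followed the treatment and Blvrb did so less. Hmox1 was at 608 CPM in WT NT, 683 in cKO NT, 2457 in WT LPS, 1943 in cKO LPS, 288 in WT IL-4 and 303 in cKO IL-4. It was 2.01 (1.99 to 2.04) above NT after LPS in WT and 1.51 (1.48 to 1.53) in cKO, and at -1.07 (-1.12 to -1.04) and -1.17 (-1.21 to -1.14) after IL-4. Both LPS libraries were above both NT libraries, and both IL-4 libraries were below them.

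Blvrb was at 179 CPM in WT NT, 259 in cKO NT, 224 in WT LPS, 251 in cKO LPS, 98.1 in WT IL-4 and 105 in cKO IL-4. The IL-4 libraries were lowest, and NT and LPS libraries overlapped. After IL-4 it was at -0.86 (-0.93 to -0.80) in WT and -1.29 (-1.37 to -1.23) in cKO. After LPS it was at 0.32 (0.27 to 0.38) in WT and -0.05 (-0.10 to 0.01) in cKO, and the sign of the cKO value depended on the scale, being 0.51 with TMM, 0.53 with the median ratio and 0.23 on TPM. On TPM the WT value after LPS was 0.25, just under 1.2-fold.

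The fit of genotype plus treatment over the 6 BMDM libraries, chosen after seeing the data, tested the treatments with the genotypes as a block. It used edgeR's quasi-likelihood test with TMM scaling on the 13074 genes that averaged 10 counts or more, with 2 residual degrees of freedom, and it counts any response that differs between genotypes as error. After LPS, 7 of the 8 genes passed an adjusted p of 0.05, 4 higher and 3 lower, beside 25.1% higher and 25.7% lower of all genes. Cp rose by 7.79 on the log2 scale (edgeR adjusted p = 0.000275), Hmox1 by 2.42 (0.000619), Fth1 by 1.30 (0.00668) and Blvrb by 0.79 (0.0223). Tfrc fell by 3.77 (adjusted p = 0.000463 in edgeR), Slc40a1 fell by 2.69 (0.000198) and Ftl1 fell by 1.15 (0.0176), while Ncoa4 was at -0.39 (0.19). The approximate standard errors, the log2 value over the root of the F statistic, were 0.19 to 0.63. Scaled to the library totals, Blvrb was at 0.14 (edgeR adjusted p = 0.583), Ncoa4 at -1.04 (0.0095) and Fth1 at 0.64 (0.0453), beside 14.7% higher and 47.7% lower of all genes.

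After IL-4, 7 of the 8 passed in the same edgeR fit, 1 higher and 6 lower, beside 10.6% higher and 10.2% lower of all genes. Cp rose by 4.54 (adjusted p = 0.00332 in edgeR). Slc40a1 fell by 4.59 (0.000176), Hmox1 fell by 1.30 (0.0137), Blvrb fell by 1.26 (0.00961), Fth1 fell by 1.16 (0.0232), Ftl1 fell by 1.11 (0.0407) and Ncoa4 fell by 0.89 (0.035), while Tfrc was at -0.87 (0.108). The approximate standard errors were 0.21 to 0.58. Scaled to the library totals, Ftl1 and Ncoa4 did not pass (edgeR adjusted p = 0.0537 and 0.0774), beside 13.5% higher and 7.54% lower of all genes.

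Each treatment has 2 libraries in this fit, so leaving out 1 of them leaves 1 sample in that arm, which is assumed to vary like the others, on 1 residual degree of freedom. In 5 of these 6 fits for LPS and 3 of 6 for IL-4 fewer of all genes passed than with all libraries, so a lost call does not show that a gene rests on a library, and a kept call is no replicate check. Slc40a1 and Cp passed after both treatments in all 6, and Hmox1, Tfrc and Fth1 did so after LPS. After LPS, Ftl1 was at -0.74 without cKO NT (edgeR adjusted p = 0.0577) and -0.85 without cKO LPS (0.0975). Blvrb did not pass without WT LPS, at 0.67 (edgeR adjusted p = 0.148), or without cKO LPS, at 0.89 (0.0618), against 0.79 with all libraries, and Ncoa4 passed without cKO NT, at -0.67 (0.0173).

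After IL-4, 4 of the 8 passed without WT IL-4 and 4 without cKO IL-4, where 1581 and 1555 of all genes passed against 2718 with all libraries. The genes that no longer passed there kept their direction, at values close to those with all libraries. Without WT IL-4 these were Fth1 at -1.03 (edgeR adjusted p = 0.0696), Hmox1 at -1.23 (0.0661) and Ncoa4 at -0.77 (0.328). Without cKO IL-4 they were Ftl1 at -1.0 (edgeR adjusted p = 0.116), Ncoa4 at -1.0 (0.148) and Blvrb at -1.13 (0.106). Without cKO NT, Fth1 at -1.02 (edgeR adjusted p = 0.055) and Ftl1 at -0.69 (0.137) did not pass. Without WT NT, Ncoa4 was at -0.59 (edgeR adjusted p = 0.0396). Tfrc ran from -0.28 without WT NT (edgeR adjusted p = 0.386) to -1.36 without cKO NT (0.0026), and it also passed without WT LPS (0.0419), without cKO LPS (0.0325) and with no filter (0.0424).

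Nos2, the inducible nitric oxide synthase that marks LPS treatment, was at 7472 and 7391 CPM in the WT and cKO LPS libraries and at most 8.74 in the other 4. Arg1, arginase 1, which marks IL-4 treatment, was at 1500 and 1541 CPM after IL-4 and at most 26.5 in the others. Among the genes beside the 8, of the 16 genes of iron uptake and transport 11 passed the filter after LPS in WT, with 4 higher and 5 lower and a median log2 value of -0.01, beside -0.58 for all genes. In cKO there were 4 higher and 6 lower of 11, and the median was -0.46. Lcn2, which binds iron-carrying siderophores, was at 0.839 CPM in WT NT and 161 in WT LPS, and its log2 value was 6.46 in WT and 6.33 in cKO. Steap3, an endosomal iron reductase, was at -3.36 and -3.37, and Trf, transferrin, at -1.03 and -1.20, in the same order of genotypes. The metal importer Slc39a8 was at -1.32 and -1.64. Slc11a2, the divalent metal transporter 1, was at 0.78 in WT and 1.12 in cKO, and Slc25a37, a mitochondrial iron importer, at 0.73 and 1.41. Genes beside the 8 are named where they passed 2-fold in either genotype, and a value given for both genotypes was not tested for a difference between them.

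Of the 20 genes of heme and hemoglobin handling, 17 passed the filter after LPS in WT, of which 4 were called higher and 13 lower. Their median was -0.96, beside -0.58 for all genes. In cKO 5 of 18 were called higher and 12 lower, and their median was -0.94, beside -0.55. Alas1, the rate-limiting enzyme of heme synthesis, was at 1.38 in WT and 1.01 in cKO, and Hp, haptoglobin, at 3.74 and 2.44. Lower among the later enzymes of heme synthesis were Cpox at -2.45 and -1.56, Fech at -1.14 and -1.14, Uros at -1.02 and -1.40, and Urod at -0.72 and -1.57. Blvra, the other biliverdin reductase, was at -1.36 and -1.89, the heme transporter Slc48a1 at -1.11 and -1.65, and Nfe2l2, which encodes the oxidative stress factor NRF2, at -1.33 and -1.12. Lrp1, the receptor of heme-hemopexin, was at -1.84 in WT and -0.70 in cKO.

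Of the 14 genes of iron sensing and regulation, 10 passed the filter after LPS, with 2 higher and 8 lower in WT and 2 higher and 5 lower in cKO, at medians of -0.86 and -0.25. Aco1, which encodes iron regulatory protein 1, was at -2.15 in WT and -1.93 in cKO. Hfe, which encodes a partner of the transferrin receptor, was at -2.40 and -2.39, and Bmpr2, a BMP receptor, was at -1.24 in WT and -0.08 in cKO. All 3 lists stand beside 21.7% higher and 63% lower of all genes in WT and 25.0% and 60.5% in cKO.

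After IL-4, 2 of the 10 uptake and transport genes that passed were higher and 7 lower in WT, and 3 higher and 5 lower in cKO, with medians of -0.43 and -0.29 beside 0.15 and 0.17. Of the heme genes, 7 of 17 were higher and 7 lower in WT and 6 of 18 were higher and 6 lower in cKO. Their medians were -0.14 and -0.09. Of 9 sensing genes, 3 were higher and 2 lower in WT and 5 higher and 1 lower in cKO, with medians of 0.01 and 0.29. Of all genes 41.3% were higher and 23.1% lower in WT, and 44.7% and 26.2% in cKO. Hfe was 1.94 and 1.67 above NT, against its direction after LPS. Alas1 was at 1.37 in WT and 0.92 in cKO, Lcn2 at 4.07 and 4.85, and Steap3 at -1.82 and -2.13. Slc39a14, a metal importer, was at -1.44 and -0.59, Hmox2, the constitutive heme oxygenase, at -1.22 and -0.94, Blvra at -1.06 and -1.25, and Pcbp2, an iron chaperone, at 1.01 and 0.83. Slc11a2 was at 0.84 and 1.67, Bach1, a heme-binding repressor, at 0.83 and 1.34, and Hp at 1.95 and 2.13. Neutrophil markers, of which Lcn2 is also one, summed to 413 and 557 CPM in the IL-4 libraries and 3.20 and 2.88 in NT, with 9 of 10 over 3 counts after IL-4 against 5 and 3 of 10 in NT, and their part in these values was not tested.

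The second question was how these genes differed between the cKO and WT libraries under each treatment. The cKO cells also carry Cre at the Lyz2 locus, and Cre and the loss of Zmynd8 cannot be told apart here. In NT, both ferritin chains and Blvrb were higher in the cKO library than in the WT library and Tfrc, Ncoa4 and Cp were lower. After LPS, Tfrc was higher and Hmox1 and Cp were lower. After IL-4, Cp and Fth1 were higher and Slc40a1 was lower. In NT 3 of the 8 were higher and 3 lower, beside 25.0% and 29.0% of 12463 genes. After LPS 1 was higher and 2 lower, beside 22.6% and 13.3% of 12386. After IL-4 2 were higher and 1 lower, beside 17.3% and 13.4% of 13245. The median over the 8 genes was 0.00 in NT, -0.09 after LPS and 0.10 after IL-4, beside -0.01, 0.03 and 0.01 over all tested genes. No gene of the 8 reached 2-fold between genotypes on this scale under any treatment. On the deposited TPM the NT shares were 12.5% higher and 44.1% lower around a median of -0.20, and with the median ratio the LPS shares were 18.2% and 17.3%. The TPM medians of all genes were 0.09 after LPS and -0.01 after IL-4. TPM values below are not taken relative to these medians.

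**Figure D4:**
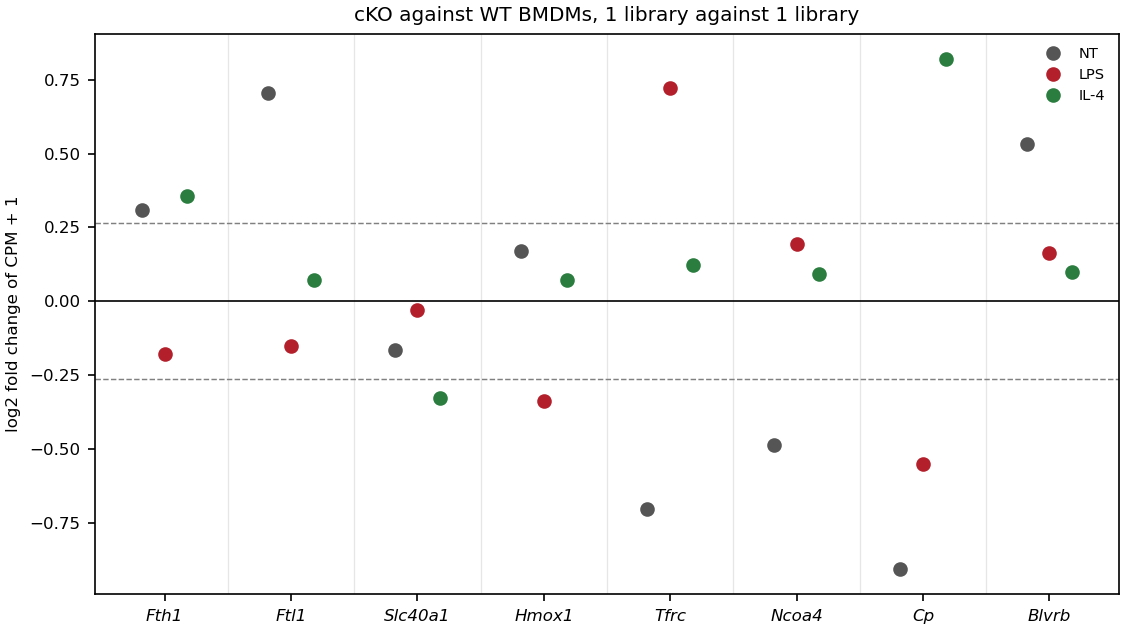
Log2 fold change of CPM + 1 between the cKO and WT libraries for each gene in NT (grey), after LPS (red) and after IL-4 (green), 1 library against 1 library, with dashed lines at 1.2-fold. All values lie between -0.91 and 0.82, and Tfrc and Cp lie past 1.2-fold on both sides of 0.

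Ftl1 had the highest value of the storage genes in NT, at 0.71 (0.70 to 0.71), and Fth1 was at 0.31 (0.30 to 0.31). On TPM, Fth1 was at 0.04 in NT, not past 1.2-fold, and Ftl1 at 0.44. After LPS both chains were below WT without being called, at -0.15 for Ftl1 and -0.18 for Fth1, and after IL-4 Fth1 was at 0.35 (0.35 to 0.36) and Ftl1 at 0.07. Ncoa4 was at -0.49 (-0.55 to -0.43) in NT, 0.19 (0.11 to 0.28) after LPS and 0.09 after IL-4, and on TPM the NT value was -0.93 and the LPS value 0.34, past 1.2-fold. The TPM median of all genes was -0.20 in NT and 0.09 after LPS.

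For export, Slc40a1 was at -0.17 (-0.25 to -0.09) in NT and -0.03 (-0.29 to 0.23) after LPS. After IL-4 it was at -0.33 (-0.76 to -0.04). On TPM the 3 values were -0.39, 0.33 and -0.01, so neither the calls nor the sign after LPS was the same on both scales. Beside them stand TPM medians of -0.20, 0.09 and -0.01 over all genes. Cp was at -0.91 in NT on 49 and 12 counts, a plain ratio of 0.284 (0.138 to 0.542). It was at -0.55 (-0.62 to -0.49) after LPS. In IL-4 it was at 0.82 (0.70 to 0.99), where it ranked 339 of 13245 among the highest.

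For uptake, Tfrc was at -0.70 (-0.77 to -0.65) in NT and 0.72 (0.52 to 1.09) after LPS. In IL-4 it was at 0.12 (0.05 to 0.19). The LPS value rested on 165 and 271 counts. As arithmetic on the same 4 libraries, the LPS value of Tfrc against NT was 1.43 higher in cKO than in WT, and its IL-4 value was 0.83 higher. The same difference between genotypes was 0.68 and 0.58 for Ncoa4, -0.86 and -0.63 for Ftl1, and 0.36 and 1.73 for Cp after LPS and IL-4. These differences share the NT libraries and were not tested.

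For heme, Hmox1 was at 0.17 (0.14 to 0.20) in NT, -0.34 (-0.36 to -0.32) after LPS and 0.07 after IL-4. On TPM it was at -0.09 in NT and -0.25 after LPS, the last not past 1.2-fold. Blvrb was at 0.53 (0.48 to 0.59) in NT, 0.16 after LPS and 0.10 after IL-4.

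In the fit over the 6 BMDM libraries, none of the 8 genes passed for cKO against WT over the 3 treatments jointly. The log2 values ran from -0.25 for Cp to 0.26 for Blvrb, with approximate standard errors of 0.15 to 0.41 and an edgeR adjusted p of 0.999 each. Leaving out either library of a treatment leaves the genotype value to the other 2 treatments, and the values then moved. Cp was at -0.99 without WT IL-4 or cKO IL-4 and at 0.10 without WT NT. Tfrc was at 0.40 without WT NT and -0.28 without WT LPS, and Ftl1 at -0.07 and 0.40. Of all 13074 genes 0 passed in edgeR, beside 403 at an unadjusted p under 0.05 and 40 adjusted with DESeq2. This tests a shift shared by the treatments, and a genotype value that differs between treatments, as for Tfrc and Cp, was not tested.

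Among the other genes of the pathway, none was past 2-fold between genotypes with a mean of at least 100 counts. Of the uptake and transport genes that passed the filter, 2 of 10 were higher and 3 lower in NT, 1 of 11 higher and 4 lower after LPS, and 5 of 10 higher and 1 lower after IL-4. Of 17 heme genes, 5 were higher and 4 lower in NT, 3 higher and 5 lower with LPS, and 2 higher and 3 lower with IL-4. Of the sensing genes, 0 of 9 were higher and 3 lower in NT, 2 of 10 higher and 1 lower after LPS, and 1 of 9 higher and 1 lower after IL-4. The shares of all genes were 25.0% and 29.0% in NT, 22.6% and 13.3% with LPS, and 17.3% and 13.4% with IL-4. Xist, the RNA of the inactive X chromosome, stood at 740 CPM in WT NT against 323 in cKO NT, at 246 in WT LPS against 429 in cKO LPS, and at 1108 in WT IL-4 against 1057 in cKO IL-4. Xist thus also differed between treatments of the same genotype. What the mixed animals contribute to the genotype values and to the treatment values was not tested.

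By the size of the difference between centred log2(CPM + 1) profiles over the 6 BMDM libraries, the 3 genes most like each member among 9933 genes were named as a description. For Fth1 they were Bid, Pgam1 and 1110008F13Rik, with a root mean square difference of 0.081 to 0.118. Ftl1 was nearest to Selenoh, Mrpl33 and Vegfb (0.0954 to 0.12). The profile of Ncoa4 was nearest to R3hdm1, Insig1 and Etv5 (0.0489 to 0.0734), and that of Blvrb to Esd, Vipas39 and Tubb6 (0.102 to 0.126). For Hmox1 they were Selenow, Plcxd2 and Gypc (0.144 to 0.18), and for Slc40a1 Cd28, Mmp12 and Npas4 (0.218 to 0.367). Tfrc was nearest to Cluh, Tsr1 and Mthfd1 (0.242 to 0.290), and Cp to Cd40, Lcn2 and Socs1 (0.276 to 0.384).

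The Raw264.7 libraries fell apart into the 3 Zmynd8 lines and the 3 p65 lines before any comparison. Xist was at 338 to 460 CPM in the Zmynd8 lines and at 3 reads or fewer in the p65 lines, and 2 ribosomal RNA rows took 8.17% to 17.1% of the reads in the former and 0.228% to 0.636% in the latter. The neutrophil markers summed to 6242 to 13685 CPM in the Zmynd8 lines, where 10 of 10 had over 3 reads, and to 7.01 to 14.1 CPM in the p65 lines, where 1 had. Macrophage markers were present in both (7 or 8 of 8 over 3 reads). Erythroid markers summed to 6.64 to 23.9 CPM in the Zmynd8 lines and 0.727 to 1.02 CPM in the p65 lines. Of 6 T cell markers, 4 to 6 had over 3 reads in the Zmynd8 lines and 0 in the p65 lines, where 1 to 3 were listed. The Raw264.7 line came from a male mouse, so Xist goes against the label of the Zmynd8 lines, and these values as a whole go against 1 shared cell line. Whether the Zmynd8 lines are Raw264.7 cells is therefore in doubt, what set them apart was not tested, and all 6 libraries are called Raw264.7 by their labels only. Fold changes are taken within a table, since the tables were normalized separately, and levels set across tables are on recovered reads as a description. Zmynd8 had 485 reads in WT Zmynd8 and 497 in D/E-A. In Zmynd8 KO its deposited value was not a whole number of reads, and the nearest was 121. Rela, which encodes p65, had 1601 reads in WT p65, 5850 in K122R and 765 in p65 KO. The column taken as WT p65 is headed only as WT with LPS, so unmodified cells are possible for it.

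The 8 genes followed the same split. Fth1 was at 12801 CPM in WT Zmynd8, 10867 in Zmynd8 KO and 9808 in D/E-A, and at 937 in WT p65, 1011 in p65 KO and 1785 in K122R. Tfrc ran the other way, at 37.0, 37.9 and 46.7 CPM in the Zmynd8 lines and 593, 457 and 511 in the p65 lines. The 3 Zmynd8 lines were above the 3 p65 lines without overlap for 6 genes, Fth1, Ftl1, Slc40a1, Hmox1, Cp and Blvrb, and below them for 2, Tfrc and Ncoa4. Of 11684 genes listed in all 6 libraries with a mean of at least 1 CPM, 25.9% were above and 49.5% below without overlap. Hmox1 ranged from 24.4 to 795 CPM, Blvrb from 6.26 to 157, Slc40a1 from 0.961 to 21.0 and Ftl1 from 1310 to 7999. Since Xist, ribosomal RNA and neutrophil markers split the same way, the line and these differences cannot be told apart. These CPM use reads recovered from the deposited values, with 12771 genes in the D/E-A table and 23772 in the Zmynd8 KO table, and the tables had been normalized separately.

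**Figure D5:**
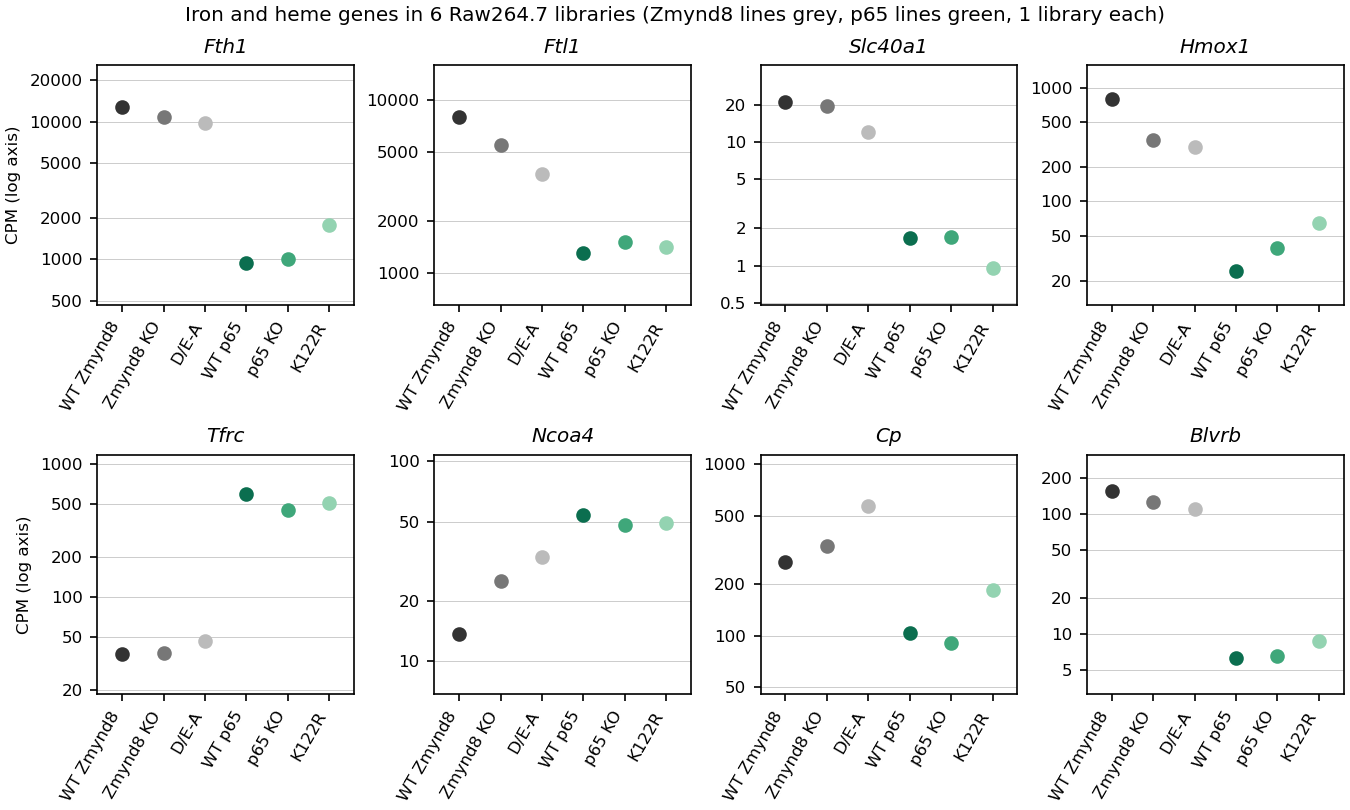
Level of each gene in the 6 Raw264.7 libraries, in CPM of recovered reads on a log axis whose range differs between panels, with Zmynd8 lines in grey, p65 lines in green and 1 library per point. For each gene the 3 grey and 3 green points do not overlap, with Fth1 at 9808 CPM or more in the Zmynd8 lines and at most 1785 in the p65 lines.

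Within the Zmynd8 lines, the comparison of D/E-A with WT Zmynd8 asked what changes when the acidic residues of a disordered region of ZMYND8 are replaced by alanine. D/E-A had 3 of the 8 genes higher and 5 lower, beside 36.7% higher and 35.9% lower of 12771 genes, and Zmynd8 KO had 2 higher and 2 lower, beside 33.8% and 36.5% of 21302. On recovered reads scaled to the library total the shares of all genes in Zmynd8 KO were 20.6% and 27.4%. As recovered reads scaled to the library total without the ribosomal RNA rows, the D/E-A shares were 26.2% and 42.8% around a median of -0.15. Both comparisons use the WT Zmynd8 library, so their values are set side by side. Since no treatment is given for Zmynd8 KO, a difference in LPS treatment and the loss of Zmynd8 cannot be told apart in its values. Fold changes here are log2 of the deposited value plus 1.

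Hmox1 was lower in both, with 14625 reads in WT Zmynd8, 5401 in D/E-A and 7312 in Zmynd8 KO, at -1.37 (-1.42 to -1.32) and -1.12 (-1.16 to -1.08). Ftl1 was at -1.07 (-1.08 to -1.06) in D/E-A and -0.46 (-0.47 to -0.45) in Zmynd8 KO, and Fth1 at -0.35 and -0.16. Ncoa4 was higher in both, at 1.30 (1.09 to 1.52) on 594 against 252 reads and 0.95 (0.74 to 1.18) on 531 against 252. Cp was at 1.12 (1.07 to 1.17) in D/E-A and 0.39 (0.34 to 0.44) in Zmynd8 KO. Slc40a1 was at -0.77 (-1.02 to -0.53) and -0.03, Blvrb at -0.49 and -0.24, and Tfrc at 0.36 (0.22 to 0.51) and 0.11. Without the ribosomal RNA rows Tfrc in D/E-A was at 0.18 and Cp in Zmynd8 KO at 0.26, both under 1.2-fold, while Fth1 and Blvrb in Zmynd8 KO were past it at -0.29 and -0.37. The chain ratio Fth1 reads over Ftl1 reads was 1.60 in WT Zmynd8, 1.96 in Zmynd8 KO and 2.63 in D/E-A. Neutrophil markers summed to 13685 CPM in WT Zmynd8, 9558 in Zmynd8 KO and 6242 in D/E-A, which runs with Hmox1 and Ftl1. Erythroid markers ran the same way, at 23.9, 16.2 and 6.64 summed CPM, with 9, 9 and 4 of 10 listed. Macrophage markers ran the other way, at 3598, 4588 and 5264 summed CPM, as Ncoa4 and Cp did, and the part of either marker list in these values was not tested.

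Of the other genes, the uptake and transport list had 6 of 10 higher and 2 lower in D/E-A and 7 of 12 higher and 1 lower in Zmynd8 KO. The heme list had 5 of 16 higher and 8 lower in D/E-A and 7 of 18 and 4 in Zmynd8 KO. The sensing list had 8 of 9 higher and 1 lower in D/E-A and 8 of 12 and 1 in Zmynd8 KO. Of all genes 36.7% were higher and 35.9% lower in D/E-A, and 33.8% and 36.5% in Zmynd8 KO, and these shares move with the scale as given above. The list medians were 0.35, -0.22 and 0.59 in D/E-A beside 0.02 for all genes. In Zmynd8 KO they were 0.38, 0.13 and 0.41 beside -0.03. Past 2-fold with a mean value of at least 10, the only one lower in both was Hamp, the iron hormone hepcidin. It was at -2.50 in D/E-A (20 against 123 reads) and -1.24 in Zmynd8 KO (56 against 123). Steap4, a metal reductase, was at 1.31 and 1.11. Hfe was at 1.12 in D/E-A and 0.88 in Zmynd8 KO, Lrp1 at 1.30 and 0.44, and Bmpr2 at 1.33 and 0.54. Steap3 was at 1.23 and Cd163, the hemoglobin scavenger receptor, at 1.84 (0.76 to 3.41, 30 against 7 reads) in Zmynd8 KO, and neither is listed in the D/E-A table.

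Within the p65 lines, all treated with LPS, the comparison of K122R with WT p65 asked what the loss of 1 acetylated lysine of p65 did. K122R had 4 of the 8 genes higher and 1 lower, beside 30.8% higher and 32.5% lower of 19670 genes, or 14.0% and 30.7% on recovered reads scaled to the library total. p65 KO had 1 higher and 1 lower, beside 26.3% and 25.7% of 19879, or 14.7% and 15.3% on recovered reads. Both use the WT p65 library. Hmox1 was at 1.54 (1.37 to 1.71) in K122R on 1071 against 383 reads and 0.68 (0.49 to 0.87) in p65 KO on 592. Fth1 was at 1.07 (1.04 to 1.10) in K122R and 0.11 in p65 KO, and Cp at 0.99 (0.90 to 1.07) and -0.18.

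Blvrb had 98 reads in WT p65, 144 in K122R and 98 in p65 KO, which gave 0.61 (0.23 to 1.00) and 0.05 (-0.37 to 0.47). Slc40a1 had 26, 16 and 26 reads, and its limits in K122R, -1.64 to 0.31 around -0.61, included no difference. Ftl1 was at 0.25 in K122R and 0.21 in p65 KO, under 1.2-fold, and at 0.27 in K122R with TMM, just past it. Tfrc was at -0.07 in K122R and -0.38 (-0.42 to -0.33) in p65 KO, and Ncoa4 at 0.01 and -0.18. The chain ratio of reads was 0.715 in WT p65, 0.665 in p65 KO and 1.27 in K122R. Rela was 1.92 higher in K122R than in WT p65 on the same scale, and the amount of p65 and its mutation cannot be told apart here.

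Of the uptake and transport genes 5 of 11 were higher and 3 lower in K122R and 2 of 11 and 2 in p65 KO. The heme list had 5 of 16 higher and 5 lower in K122R and 3 of 15 and 1 in p65 KO, and the sensing list 3 of 11 and 3 in K122R and 4 of 12 and 2 in p65 KO. Of all genes 30.8% were higher and 32.5% lower in K122R, and 26.3% and 25.7% in p65 KO, on the deposited values. Slc25a37 was at 1.14 in K122R, with 495 against 233 reads, and 0.13 in p65 KO. Neo1, a co-receptor of BMP signalling, was at 1.35 (0.42 to 2.52) on 31 against 12 reads and at 0.43 in p65 KO.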

How the data were processed

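RNA-seq was analysed in 12 libraries, and 35 further samples were not analysed here. For BMDMs the authors mixed 3 biological replicates per library, selected polyadenylated RNA and used TopHat on mm10, and they deposited estimated counts and TPM per gene. The counter is not given in the sources used here. The submitters' processing notes list CASAVA 1.4 and Bowtie 0.12.2. For Raw264.7 cells the authors deposited 1 normalized signal value per gene and library, and these were whole numbers of reads times 1 factor per library and table, to within 0.05 of a read, for all genes but 1, Zmynd8 in Zmynd8 KO. The reads of WT Zmynd8 came from the table shared with Zmynd8 KO. Folds used the deposited signal, and limits the reads. Also, 2 unlabelled columns of values were not used, nor were the deposited columns of fold changes and p-values.

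Estimated counts were rounded before scaling to the library total. A pseudocount of 1 was added before taking log2. Genes needed a mean of 10 counts or a mean value of 1. TMM factors and the quasi-likelihood fit of genotype plus treatment on the BMDM counts came from edgeR 4.0.16 in R 4.3.3, with DESeq2 1.42.0 as an alternative, and the rest was computed in Python 3.11.15 with scipy 1.17.1. The procedure was tested on simulated data. Beside the 8 genes, the text names genes of 3 lists past 2-fold with a mean of 100 counts (BMDMs) or a mean value of 10 (Raw264.7), the 3 nearest profiles of each gene, and label and treatment checks. Flvcr1, Flvcr2 and Hjv of the lists were not matched in BMDMs. A further gene that the naming rule takes is not reported here. The genes and lists were chosen with earlier results of these data known. Alternatives were the median ratio, TMM, TPM, recovered reads scaled to the total, a pseudocount of 0.1, no filter, 2-fold, an exact binomial test and, chosen after seeing the data, leaving out the ribosomal RNA rows, and the fit of genotype plus treatment.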

Additional observations from a re-analysis of the deposited data

Results flagged for a closer look

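Tfrc and Cp were past 1.2-fold in opposite directions between the cKO and WT libraries under different treatments. Tfrc had a log2 fold change of -0.70 in NT and 0.72 after LPS. Cp was at -0.91 in NT, on 49 and 12 counts, and -0.55 after LPS, but 0.82 after IL-4. Whether these values differ between treatments was not tested.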

How the results depend on the processing

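The replicate numbers pair no samples, since each group has 1 library, and a comparison of 2 libraries has none to leave out. In the fit of genotype plus treatment, a blocked analysis added after seeing the data, the members that passed for cKO against WT were 0 in each alternative, while all genes that passed went from 0 to 40 with DESeq2, 32 without a filter and 6 to 32 with 1 library left out. For LPS, 5 to 7 members and 5323 to 7097 genes passed with 1 library left out. For IL-4, 4 to 8 members and 1555 to 4590 genes did so: 4590 without WT NT, 1581 without WT IL-4 and 1555 without cKO IL-4, against 2718 with all. For pairs of libraries, the number of the 8 genes called stayed within 1.5 times in all 11 comparisons under the median ratio, TMM, TPM, a pseudocount of 0.1, no filter, the further requirement of an exact binomial test on the reads, and recovered reads with and, chosen after seeing the data, without ribosomal RNA rows, where each applied. At 2-fold it was 0 for cKO against WT in NT, after LPS and after IL-4 and for p65 KO, 5 for IL-4 against NT in WT, 4 for D/E-A, 1 for Zmynd8 KO and 2 for K122R. Of 440 values of single genes under an alternative scale, pseudocount or filter, 21 had another call and 8 another sign. Of these 8, 0 were called on the CPM or deposited values, and 3 were called under the alternative, namely Blvrb after LPS in cKO with the median ratio and TMM, and Slc40a1 in cKO against WT after LPS on TPM. TPM accounted for 9 of the 21, on 56 values. The 88 values without the filter could not change, since all 8 genes passed it in every comparison. The same holds for the number of the 8 genes called without the filter. With recovered reads the shares of all genes in K122R, p65 KO and Zmynd8 KO moved as given beside their counts. The depth limits the values of Cp in NT (49 and 12 counts) and of Slc40a1 in the p65 lines (16 to 26 reads).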
